A study of Drosophila melanogaster with 2 samples.

Results

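The Enhancer of split complex, E(spl), is a cluster of small genes on chromosome arm 3R of Drosophila melanogaster, and 10 of its genes are described here out of 13945 protein-coding genes on the 6 major arms. They comprise 7 HLH genes (E(spl)mdelta, mgamma, mbeta, m3, m5, m7 and m8-HLH) and 3 Bearded-family genes (E(spl)malpha, m2 and m4-BFM). The genes were chosen by their membership of the complex, with the positions and signal ranks of the peaks below already known, so their binding is given as a description and carries no test. Binding was mapped by chromatin immunoprecipitation and sequencing (ChIP-seq) of Lola-RJ, the J isoform of the BTB zinc-finger transcription factor Lola (longitudinals lacking). The material was whole embryos of mixed sex, aged 0 to 12 h, from a transgenic line that stably expresses Lola-RJ with GFP at its C terminus, and the precipitation used an antibody to GFP, although the antibody field of the labels lists lola. All samples formed 1 group of 2 biological replicates, numbered 1 and 3. No second genotype or stage was compared, and the labels name no promoter for the fusion and no cell type, so cells in which an E(spl) gene is on and cells in which it is off cannot be told apart. The labels do not say whether the replicates were separate embryo collections, and the spread between them may be technical.

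Notch is a cell-surface receptor that is cut when a neighbouring cell presents a ligand. The freed intracellular part enters the nucleus, joins the DNA-binding protein Su(H) and the coactivator Mastermind, and switches on target genes, of which the E(spl) genes are the classical ones in the fly. The HLH proteins are basic helix-loop-helix repressors of the Orange (HES) class that recruit Groucho, the product of the neighbouring gene gro, and hold down proneural genes in cells that will not become neural precursors. The Bearded-family proteins bind the ubiquitin ligase Neuralized and inhibit its action on the Notch ligands. Many genes of both kinds carry Su(H) sites close upstream of their start sites, often as an inverted pair.

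At 4 genes, m7, mdelta, m3 and m2, a Lola-RJ summit lay within 1000 bp of the transcription start site (TSS) and belonged to the 100 pooled peaks of highest signal. The other 6 genes had weaker summits or none there. A summit is the base at which a peak is highest, and rank 1 is the peak of highest signal in a list. The sequences at the 4 strong summits and at 3 weak promoter summits are printed first, since the results below turn on their positions and base composition. The windows hold the pooled summit and 50 bp on each side, and were read from the reference genome (dm6, plus strand). Capitals mark unbroken runs of at least 6 A or T bases. The first 4 are the strong summits upstream of mdelta (chr3R:25997235-25997335), m2 (chr3R:26017935-26018035), m3 (chr3R:26021347-26021447) and m7 (chr3R:26036617-26036717).
E(spl)mdelta-HLH: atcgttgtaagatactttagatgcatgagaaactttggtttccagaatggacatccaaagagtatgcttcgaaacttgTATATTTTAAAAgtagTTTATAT
E(spl)m2-BFM: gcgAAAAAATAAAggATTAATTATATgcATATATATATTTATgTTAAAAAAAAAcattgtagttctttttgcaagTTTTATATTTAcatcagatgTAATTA
E(spl)m3-HLH: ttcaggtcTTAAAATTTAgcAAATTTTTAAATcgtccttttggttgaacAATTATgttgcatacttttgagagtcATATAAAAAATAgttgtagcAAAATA
E(spl)m7-HLH: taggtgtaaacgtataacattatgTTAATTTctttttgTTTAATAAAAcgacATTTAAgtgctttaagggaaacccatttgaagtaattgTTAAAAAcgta
The next 3 are weak summits upstream of mgamma (chr3R:25999738-25999838), mbeta (chr3R:26006378-26006478) and m4 (chr3R:26024775-26024875), the members whose strongest weak pooled summit within 500 bp left its whole window upstream of the TSS. They are not typical of all weak summits of the region, which are summarised below.
E(spl)mgamma-HLH: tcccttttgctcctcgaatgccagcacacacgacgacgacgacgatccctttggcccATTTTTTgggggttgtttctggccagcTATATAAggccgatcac
E(spl)mbeta-HLH: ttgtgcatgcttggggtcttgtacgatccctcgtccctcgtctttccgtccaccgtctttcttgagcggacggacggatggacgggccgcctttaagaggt
E(spl)m4-BFM: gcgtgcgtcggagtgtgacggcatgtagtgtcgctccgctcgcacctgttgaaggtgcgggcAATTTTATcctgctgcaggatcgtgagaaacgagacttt
A and T made up 69.3% of the bases in the mdelta window, 81.2% in the m2 window, and 74.3% in each of the m3 and m7 windows. The share was 46.5% in the mgamma window, 41.6% in the mbeta window and 43.6% in the m4 window. In long A/T runs the m2 window held 63 bases and the m3 window 46. The m7 window held 30 and mdelta 19. The mgamma window held 14, the m4 window 8 and the mbeta window none.

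The complex region ran from 5 kb before the first to 5 kb after the last of the 10 genes (chr3R:25992621-26046008, 53.388 kb). All 10 genes have a single annotated transcript of 1 exon, so none has an intron. The region held 12 summits of the IDR-thresholded list, that is, of the 6154 peaks of highest pooled signal. Of these, 7 lay at promoters, within 500 bp of a coding TSS (58.3%, against 40.4% over all arms). The other 5 were intergenic (41.7%, against 20.5%). A summit near a TSS was counted as promoter whether or not it lay inside a gene. Beyond 500 bp of a TSS, none lay in a gene body. Over all arms, introns outside promoters held 35.5% of IDR-thresholded summits. The 10 genes offer no intron for a summit to fall in, and only other genes of the region, such as gro, have introns. A lack of intron summits also raises the promoter and intergenic shares. Nothing is therefore read from any of these differences. The pooled signal of the 12 summits, on the authors' scale, ran from 165.4 to 3055 with a median of 928.3, against a median of 268.4 for the whole list. When the arms were cut into 2504 tiles of the same length, the median tile held 2 such summits and 18 tiles (0.719%) held 12 or more, up to 22. The complex also held 4 of the first 100 peaks, and no tile held more than 3. The region was picked with these peaks known and the tiles were not, so the comparison describes the region and tests nothing. All 12 summits had a summit within 100 bp in each replicate list, and 11 had a match within 50 bp in both. The IDR list was thresholded on reproducibility and each replicate list holds 30000 peaks, so these matches are a description. Within the first 6154 peaks of each replicate, 10 of the 12 had a match within 100 bp in both. The median displacement was 12 bp in replicate 1 and 14 bp in replicate 3, and the largest was 62 bp.

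**Figure D1:**
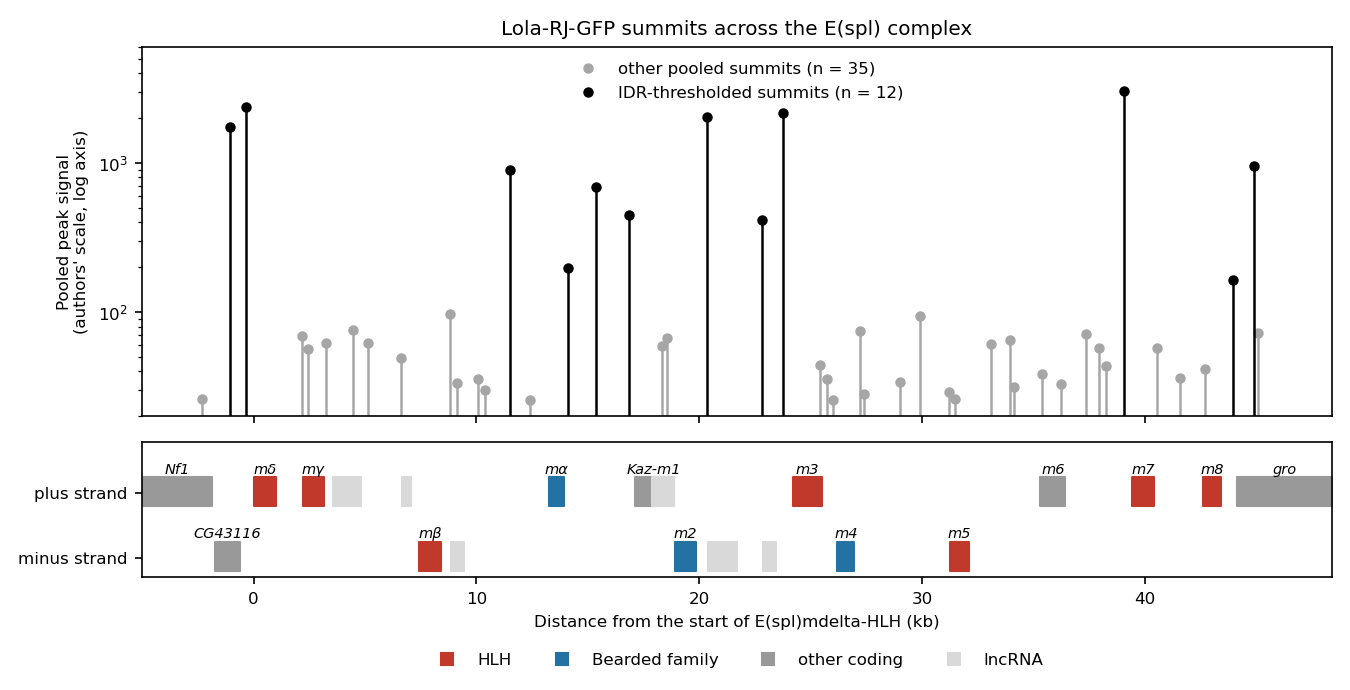
Pooled peak signal (authors' scale, log axis) at each summit across the complex against distance from the start of E(spl)mdelta-HLH (kb), with black stems for the 12 IDR-thresholded summits and grey stems for the other 35 pooled summits. The lower panel shows the genes by strand. The 4 tallest stems stand beside mdelta, m2, m3 and m7, and the next tallest inside CG43116. Shorter black stems include those upstream of malpha, between malpha and m2, and at gro. No black stem stands between m3 and m7.

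E(spl)m7-HLH (FBgn0002633, chr3R:26037038-26038019, plus strand) encodes an HLH repressor and had the strongest summit of the complex. The summit lay 360 bp upstream of the TSS in replicate 1 and 371 bp upstream in replicate 3, which gave 365.5 ± 7.8 bp (SD, n = 2). Its signal was 1663 in replicate 1, where it ranked 7 of 30000 peaks, and 1410 in replicate 3, where it ranked 31. In the pooled list it ranked 15 with a signal of 3055. The signal scales of the lists may differ, so ranks were read within each list. Outside the complex, the gene whose strongest promoter summit was most like that of m7 over the 2 replicates was gish, which encodes a casein kinase I, at a distance of 0.12 in log2 signal among 6155 genes. It ranked 10 in replicate 1 and 22 in replicate 3. CG11309 and CG7632, which share a summit, followed at a distance of 0.26.

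E(spl)mdelta-HLH (FBgn0002734, chr3R:25997621-25998633, plus strand) encodes an HLH repressor known from the developing eye. Its summit lay 298 bp upstream in replicate 1 and 372 bp upstream in replicate 3 (335 ± 52.3 bp, SD, n = 2), the widest spread between replicates among the 5 genes with an IDR-thresholded summit within 1000 bp. The rank was 84 in replicate 1, with a signal of 990.6, and 38 in replicate 3, with a signal of 1360. The pooled summit, 336 bp upstream, ranked 48 with a signal of 2359. It also lay 289 bp upstream of CG43116, a coding gene on the opposite strand, so the summit cannot be assigned to either gene from its position. A further summit 1034 bp upstream of mdelta lay inside CG43116, 409 bp past its TSS, and ranked 131 in the pooled list, 225 in replicate 1 and 82 in replicate 3.

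E(spl)m3-HLH (FBgn0002609, chr3R:26021823-26023127, plus strand) encodes an HLH repressor. Its summit lay 432 bp upstream in replicate 1 and 413 bp upstream in replicate 3 (422.5 ± 13.4 bp, SD, n = 2). It ranked 53 with a signal of 1142 in replicate 1, and 83 with a signal of 1052 in replicate 3. The pooled summit, 426 bp upstream, ranked 70. The TSS of the non-coding gene lncRNA:CR43644, which runs away from m3 on the minus strand, was nearer, at 321 bp. A weaker summit 1390 bp upstream of m3 ranked 1835 in the pooled list, 2218 in replicate 1 and 1734 in replicate 3.

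E(spl)m2-BFM (FBgn0002592, chr3R:26016514-26017470, minus strand) is a Bearded-family gene. Its summit lay 515 bp upstream in replicate 1 and 501 bp upstream in replicate 3 (508 ± 9.9 bp, SD, n = 2), just beyond the 500 bp limit in every list. It ranked 77 with a signal of 1043 in replicate 1 and 95 with a signal of 989.0 in replicate 3, and the pooled summit ranked 82 with a signal of 2029. The m3 summit at 426 bp is the last member summit inside the limit and the m2 summit at 515 bp the first outside it. The peak interval of m2, unlike its summit, reached into the 500 bp window.

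The order of these 4 summits was not fixed. E(spl)m7-HLH led in both replicates, but mdelta was last of the 4 in replicate 1 and next after m7 in replicate 3. The place of mdelta relative to m3 and m2 thus changed between replicates, while m3 ranked above m2 in both.

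E(spl)malpha-BFM (FBgn0002732, chr3R:26010893-26011568, plus strand) encodes a Bearded-family inhibitor of Neuralized and had, within 1000 bp of its TSS, a single IDR-thresholded summit, on the downstream side. This summit lay 850 bp downstream of the TSS in the pooled list, 811 bp in replicate 1 and 819 bp in replicate 3 (815 ± 5.7 bp, SD, n = 2), beyond the end of the gene. Its rank was 2898 in replicate 1 and 7917 in replicate 3, so it fell outside the first 6154 peaks of replicate 3. A stronger intergenic summit stood 1784 bp upstream of malpha. It ranked 562 in the pooled list, 563 in replicate 1 and 569 in replicate 3. Within 500 bp of the malpha TSS, neither the pooled list nor replicate 1 held a summit, and replicate 3 held a summit of rank 21377.

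The remaining 5 genes had no IDR-thresholded summit within 1000 bp. The nearest was 2566 bp from the TSS of mgamma (FBgn0002735, chr3R:25999851-26000761, plus strand), 3086 bp from mbeta (FBgn0002733, chr3R:26005046-26006023, minus strand) and 3182 bp from m4 (FBgn0002629, chr3R:26023821-26024579, minus strand). It was 6932 bp from m5 (FBgn0002631, chr3R:26028854-26029735, minus strand) and 1307 bp from m8 (FBgn0000591, chr3R:26040240-26041008, plus strand). Of these, mgamma is an HLH gene active in neural stem cells and mbeta an HLH gene active in the wing disc. E(spl)m4-BFM is the remaining Bearded-family gene, m5 is an HLH gene, and m8 is the HLH gene whose dominant allele gave the complex its name.

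Weak summits were present at most of these start sites. E(spl)mbeta-HLH had the strongest of them, 405 bp upstream with a pooled signal of 97.4 and rank 8665; it ranked 8252 in replicate 1 and 9495 in replicate 3. The m4 summit, 246 bp upstream, ranked 11074 in the pooled list, 10411 in replicate 1 and 15147 in replicate 3. At mgamma the strongest promoter summit lay 63 bp upstream in the pooled list, at rank 11852, and 13 bp upstream in replicate 3, at rank 9753. In replicate 1 it lay 38 bp downstream, at rank 14160, too far from the pooled summit to be matched within 100 bp. At these 3 genes no promoter summit was among the first 6154 peaks of any list. The m8 summit, 53 bp downstream of the TSS, ranked 18555 in the pooled list, 13691 in replicate 1 and 28033 in replicate 3. E(spl)m5-HLH had a summit within 500 bp only in replicate 3, 193 bp upstream at rank 20708. Across the region, the pooled list held 35 summits below the IDR threshold, with signals from 25.5 to 97.4. Their deposited −log10 q-values ran from 0.612 at the weakest to 4.33 at the strongest. In replicate 3 the value was 0.514 at the m8 summit and 1.09 at the m5 summit. It was 1.01 at the malpha summit of rank 21377. Weak summits are therefore not read as binding. The weakest IDR-thresholded summit of the region had 165.4 and the weakest of the whole list 139.9. A match within 100 bp was found in replicate 1 for 25 of the 35, in replicate 3 for 17, and in both for 13, against 12 of 12 for the IDR-thresholded summits, a difference that the signal threshold itself can set.

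**Figure D2:**
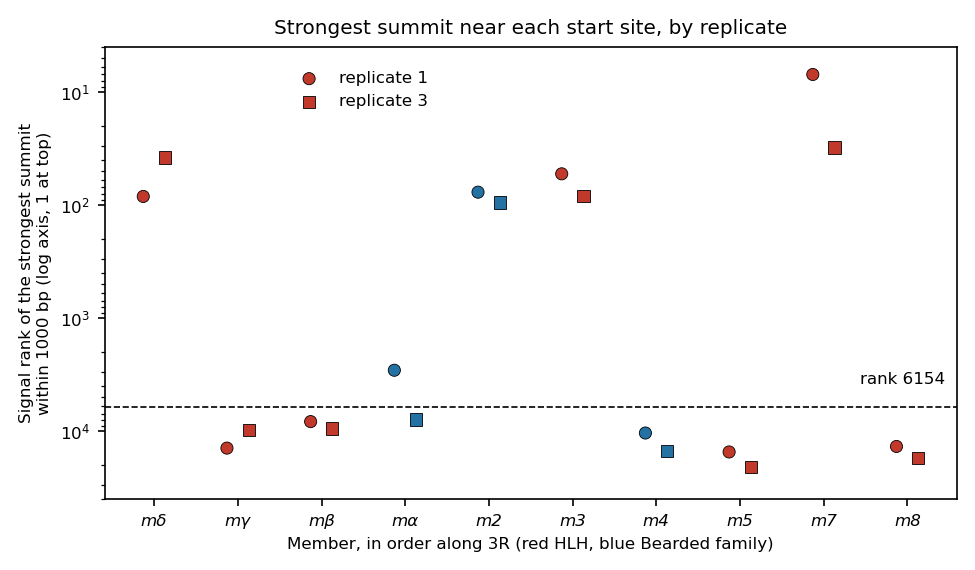
Signal rank (log axis, 1 at the top) of the strongest summit within 1000 bp of each start site in replicate 1 (circles) and replicate 3 (squares), with HLH genes in red, Bearded-family genes in blue and a dashed line at rank 6154. The points of mdelta, m2, m3 and m7 lie between ranks 7 and 95, malpha has a point on each side of the line (2898 and 7917), and the other genes lie below it.

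With a promoter defined as 500 bp on each side of the TSS, 3 of the 10 genes had an IDR-thresholded promoter summit (mdelta, m3 and m7), beside 22.9% of all coding genes. The 3 were the same in the first 6154 peaks of replicate 1 (background 23%) and of replicate 3 (background 22.3%), among the stronger 50% of IDR-thresholded peaks (13.5%) and with the most upstream TSS of each gene (20.8%). The share among members is near that of all genes. For the first 100 peaks the count was still 3 of 10, beside 0.61% of all coding genes (85 genes). The median signal of the strongest promoter summit was 312.1 over the 3192 coding genes that had one. The rule took the members with these peaks known, and nothing further is read from the counts.

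By class, 3 of 7 HLH genes and 0 of 3 Bearded-family genes had a promoter summit. With a window of 1000 bp the counts became 3 of 7 and 2 of 3, since m2 and malpha entered (background 25.7%). Placing a peak by its whole interval added m2 and gave 1 of 3 (background 24%). With 250 bp, no member of either class was counted (background 18.2%). With all 30000 pooled peaks, 6 of 7 and 1 of 3 were counted (background 49.9%), because the weak summits of mgamma, mbeta, m4 and m8 entered. The split by class thus rests on 1 gene at 515 bp and, in the wider window, on a summit past the end of malpha. Both classes held genes with a strong summit within 1000 bp and genes with only weaker summits there.

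The strong summits stood farther upstream than most promoter summits. Over all 2488 IDR-thresholded promoter summits the nearest coding TSS lay a median of 134 bp away on the downstream side, and the quartiles were 218 and 70 bp. In 257 of them (10.3%) the summit lay at least 336 bp upstream of the nearest coding TSS, as those of m7 and m3 did. The limit of 336 bp is the offset of the mdelta summit from its own TSS. For the mdelta summit the nearest coding TSS was that of CG43116, at 289 bp, so it is not among the 257. The m2 summit, at 515 bp, lay outside this window.

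**Figure D3:**
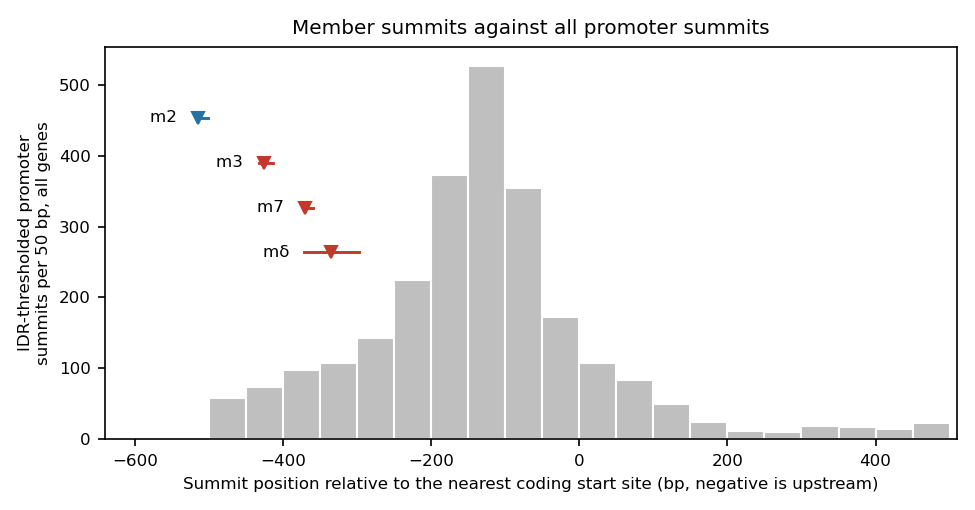
Number of IDR-thresholded promoter summits per 50 bp (grey bars, all genes) against summit position relative to the nearest coding start site (bp, negative is upstream), with triangles for the pooled summits upstream of m2, m3, m7 and mdelta, placed against their own start sites, and lines joining the 2 replicate positions. The 4 triangles lie between 336 and 515 bp upstream, left of the main mass of bars around the median of 134 bp.

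The longest stretch of the region without an IDR-thresholded summit ran from the m3 to the m7 summit, 15.27 kb. It holds the body of m3, the whole of m4 and m5, and E(spl)m6-BFM, a further Bearded-family gene that is not among the 10. More than 500 bp from either end, the pooled list placed 17 weak summits there, with signals from 25.5 to 94.7 and a best rank of 8900. Replicate 1 placed 16 with a best rank of 10117, and replicate 3 placed 13 with a best rank of 10213. None of these summits was among the first 6154 peaks of its list. Such an interval is common: 29.8% of the 6148 intervals between neighbouring IDR-thresholded summits were at least as long, and the median was 6.68 kb.

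The other genes of the locus differed in the same way. Kaz-m1, formerly E(spl)m1, belongs to the Kazal family of protease inhibitors and not to either E(spl) class. Its promoter summit, 273 bp upstream, ranked 1634 in the pooled list, 1862 in replicate 1 and 1510 in replicate 3. The gene gro encodes the Groucho corepressor that HLH proteins recruit. It had a summit 135 bp upstream of a TSS with rank 486 in the pooled list, 603 in replicate 1 and 449 in replicate 3. A further, weak summit 189 bp upstream of a gro TSS ranked 5235, and 6262 and 4602 in replicates 1 and 3. Another summit, of rank 865, lay 1726 bp upstream of Kaz-m1. E(spl)m6-BFM had no IDR-thresholded promoter summit.

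The summits lay in A/T-rich DNA. In the same summit windows the 12 IDR-thresholded summits of the region had a median A/T content of 73.8%, from 59.4% at the summit past malpha to 84.2% at the summit 1726 bp upstream of Kaz-m1. The flanks 500 to 1000 bp away had a median of 51.5%, from 46.9% to 63.6%. The 6154 summits of the whole list had a median of 71.3%, so the base composition is shared with the list at large. Windows centred on the replicates' own summits gave 74.3% at m7 in both, and 72.3% in replicate 1 and 71.3% in replicate 3 at mdelta. At m2 they gave 81.2% and 84.2%, and at m3 72.3% and 75.2%. The weak summit windows of mgamma, mbeta and m4 lay below all 12, but the weak summit of m8 had 62.4%. The 35 weak pooled summits of the region ran from 41.6% to 84.2% with a median of 56.4%. In 8 of them the content was at least 70%, against 9 of the 12, so weak and IDR-thresholded summits overlapped in base composition.

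The 500 bp upstream of the start sites showed the same division. The highest A/T content of any window of that length there, in steps of 10 bp, was 83.2% at mdelta, 82.2% at m2, 81.2% at m3 and 80.2% at m7. It was 63.4% at m4, 62.4% at m5 and 58.4% at m8. It was 57.4% at both mbeta and malpha, and 54.5% at mgamma. The values of the 4 strongly bound genes and of the other 6 did not overlap. Genes had been divided by binding with these data known, and the split is descriptive. Within 500 bp, over all coding genes, the contrast was small, with a median of 78.2% for the 3192 genes with a promoter summit and 75.2% for the 10753 without. A highest window of 63.4% or less was found in 10.5% of all coding genes. A/T-rich DNA was also present without an IDR-thresholded summit. The region held 50 stretches, 13.17 kb in all, in which windows of that length reached at least 70% A/T. Of these, 11 stretches (22%) held an IDR-thresholded summit, and 11 of the 12 summits lay in such a stretch. Over the 6 arms 4551 of 154649 stretches (2.94%) held any of the 6154 summits. The region was picked with its summits known and is dense in them, so the higher share is a description and was not tested. The interval between m3 and m7 held 11 stretches, up to 561 bp long, with no summit of the IDR-thresholded list. A stretch of 421 bp between mdelta and mgamma (chr3R:25998521-25998941) also had none.

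**Figure D4:**
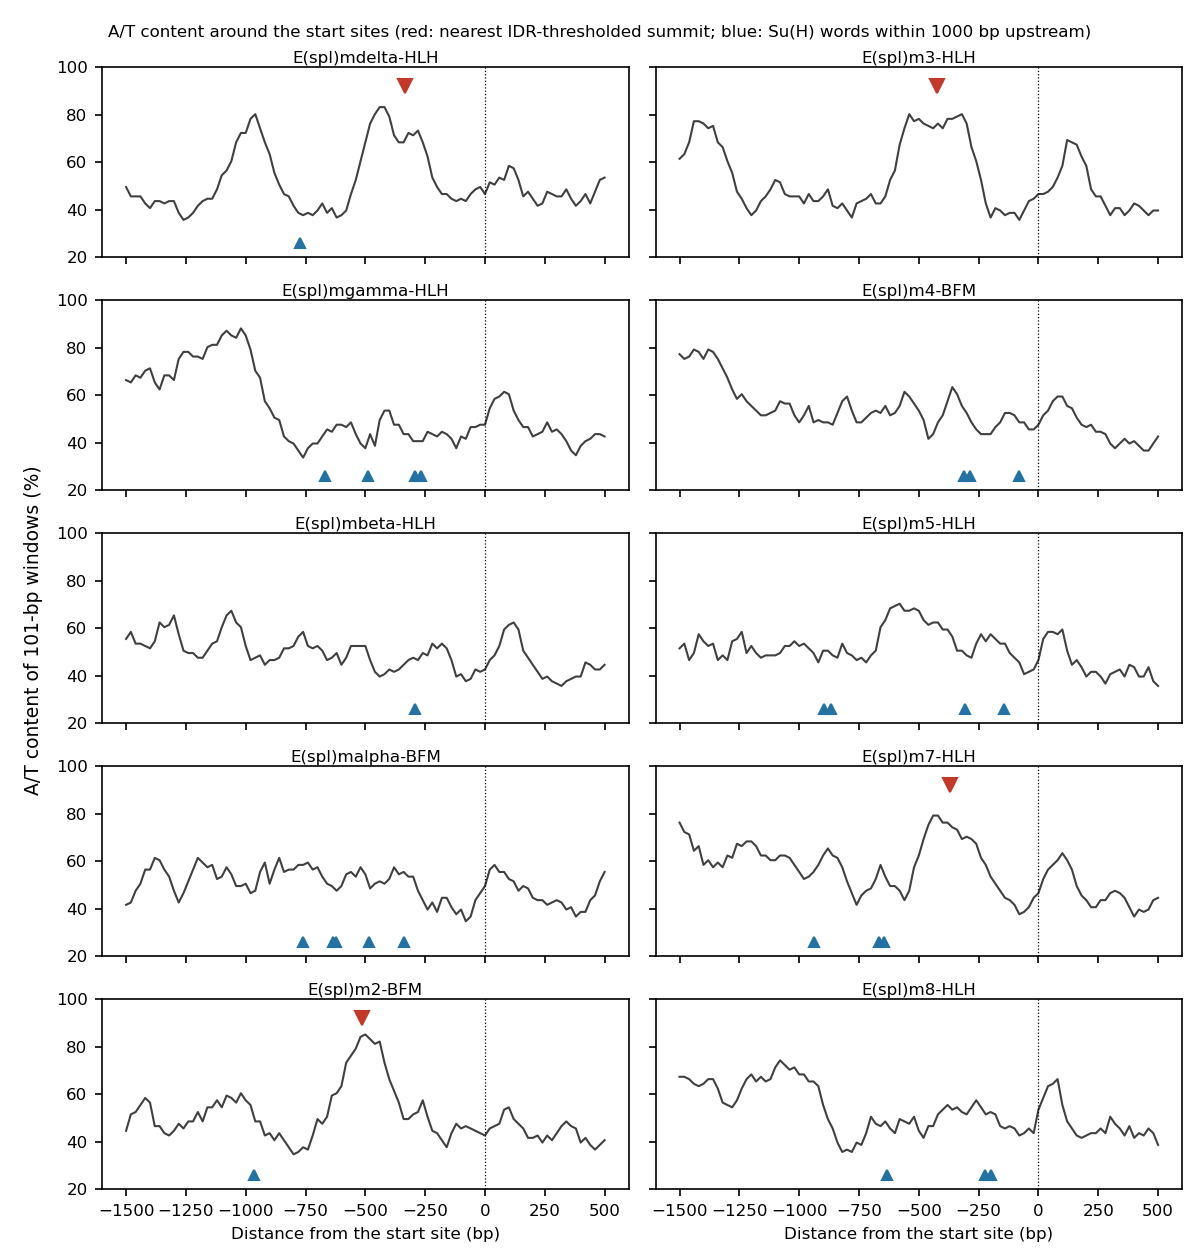
A/T content (%) of windows of 50 bp on each side against distance from the start site (bp, negative is upstream) for each of the 10 genes. Red triangles mark the nearest IDR-thresholded summit within 1500 bp upstream or 500 bp downstream, blue triangles mark Su(H) words within 1000 bp upstream, and the red triangles of mdelta, m2, m3 and m7 sit over rises of A/T content, with Su(H) words on the far side of the summit or absent.

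Su(H) sites were searched as the words GTGGGAA and GTGAGAA on both strands. Within 500 bp upstream of the TSS they were found at 6 of the 10 genes: mgamma, mbeta, malpha, m4, m5 and m8. Of all coding genes, 10.2% held one, with 11.4% among genes with a promoter summit and 9.85% among those without. The 4 strongly bound genes, mdelta, m2, m3 and m7, held none in this window. This division depended on the window, which was extended after the data had been seen. Within 1000 bp, 9 of 10 genes held a word, beside 19.5% of coding genes, and so did 3 of the 4 strongly bound genes. The word lay 774 bp upstream of mdelta and 965 bp upstream of m2, and words lay 938, 668 and 644 bp upstream of m7. All of these were farther from the TSS than the strong summit of the same gene. The nearest IDR-thresholded summit was 260 bp from the mdelta word, 450 bp from the m2 word and at least 273 bp from the m7 words; for mdelta it was the further summit at 1034 bp. E(spl)m3-HLH held none within 1000 bp. Allowing any base at the variable place of the word, within 500 bp, left the counts at 6 and 0, beside 21.2% of coding genes. None of the 12 summit windows of the region held a word, beside 1.53% of all IDR-thresholded summits. With so low a share, 0 of 12 is not read as a lack of words.

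Inverted pairs of these words with starts 24 bp apart were found at 4 genes. A further inverted pair, 898 and 869 bp upstream of m5, had starts 29 bp apart and is not printed. The 4 pairs are printed in the direction of each gene, with the Su(H) words in capitals. Pair and summit can thus be placed on the same promoter. The pair lay 293 and 269 bp upstream of mgamma (chr3R:25999550-25999596, plus strand), 310 and 286 bp upstream of m4 (chr3R:26024851-26024897, minus strand), 668 and 644 bp upstream of m7 (chr3R:26036362-26036408, plus strand) and 223 and 199 bp upstream of m8 (chr3R:26040009-26040055, plus strand).
E(spl)mgamma-HLH: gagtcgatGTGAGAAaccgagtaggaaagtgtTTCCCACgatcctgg
E(spl)m4-BFM: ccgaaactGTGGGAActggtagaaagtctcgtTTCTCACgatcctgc
E(spl)m7-HLH: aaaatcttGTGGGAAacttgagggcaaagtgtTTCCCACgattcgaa
E(spl)m8-HLH: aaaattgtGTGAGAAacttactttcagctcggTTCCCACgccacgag
The near word of the m7 pair lay 273 bp from the m7 summit, on the side away from the gene. At mgamma, m4 and m8 the nearest IDR-thresholded summit was at least 1506 bp from either word. The strongest weak pooled promoter summits of mgamma and m4, at 63 and 246 bp, lay on the gene side of their pairs. That of m8 lay downstream of the TSS. A further weak pooled summit lay 217 bp downstream of the mgamma TSS. Another lay 449 bp upstream of m4, on the far side of its pair.

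Other words were searched in the same summit windows, on both strands. The proneural E box (CAGGTG or CAGCTG) occurred in 0 of the 12 windows, against 3.82% of all IDR-thresholded summits. The HES class C site (CACGTG or CACGCG) and the N box (CACNAG), to which HES-class repressors bind, also occurred in 0, against 1.19% and 7.39%. The Zelda site (CAGGTAG) and the DRE (ATCGATA) occurred in 0, against 0.292% and 2.89%. With 12 windows and shares this low, the counts of 0 are not read as a lack of these words. A GAGA repeat (GAGAG) occurred in 1 window, against 7.30%. The words TATAAA and AAAAAA, which fall within the A/T runs marked above, occurred in 4 windows each, against 28.5% and 29.8%. In the 500 bp upstream of the TSS, the DRE word was found at none of the 10 genes, whereas 20.8% of coding genes held it, and 33.1% of those with a promoter summit. An HES class C site was found at 3 of the 10 genes, 44 bp upstream of m7, 181 bp upstream of mdelta and 484 bp upstream of m4, and at 13.9% of coding genes. The proneural E box and the N box were each found at 5 of the 10 genes, beside 34.9% and 43.4% of coding genes. The GAGA repeat was found at 7 (41.0%) and the Zelda site at 2 (2.93%). TATAAA and AAAAAA were each found at 9 (61.6% and 66.6%). A match is only a word in the sequence and says nothing about occupancy.

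Other genes of the Notch pathway were looked up by list. Outside the complex region, 15 of 42 genes (35.7%) had an IDR-thresholded promoter summit, beside 22.9% of all coding genes. The number was also 15 for replicate 1 and was 13 for replicate 3, but the genes were not all the same. In replicate 1, N, Nedd4 and CtBP dropped out, and Psn, dx and dpn entered. In replicate 3, kuz, pen-2 and Su(H) dropped out, and Ocho entered. The IDR-thresholded count of 15 fell to 5 among the stronger 50% of IDR-thresholded peaks. Most of the summits of these 15 genes were therefore in the weaker part of that list.

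Regulators of endocytosis gave 5 of 8 genes. The gene numb, which encodes an inhibitor of Notch inherited by 1 daughter of an asymmetric division, had the strongest summit of the list, 248 bp upstream, at rank 35 in the pooled list, 51 in replicate 1 and 18 in replicate 3. The summit of neur, which encodes the Neuralized ligase that Bearded-family proteins inhibit, lay 253 bp upstream and ranked 505, with 407 in replicate 1 and 645 in replicate 3. The others were mib1, a ligase acting on the ligands, lqf, the epsin that internalises them, and Nedd4, at ranks 4433, 3535 and 4646. The members spdo, dx and Su(dx) had none in the IDR-thresholded list, and dx was counted in replicate 1.

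The receptor and its processing enzymes gave 6 of 10 genes. The gamma-secretase subunit gene aph-1 ranked 463, with its summit 370 bp upstream, and rumi, which encodes the glucosyltransferase of Notch, ranked 1003, with its summit 70 bp upstream. O-fut1, which encodes the fucosyltransferase, ranked 3469. The receptor gene N itself had a summit 357 bp upstream at rank 4687 in the pooled list and 6211 in replicate 1, just outside its first 6154 peaks. The protease gene kuz (rank 5761) and the gamma-secretase gene pen-2 (rank 5951) were near the end of the list. Members without an IDR-thresholded promoter summit were fng, Tace, Psn and Nct, of which Psn was counted in replicate 1. The ligand gene Ser had none.

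In the nuclear complex 4 of 6 genes were counted. Besides gro these were mam, which encodes Mastermind, at rank 2093, Su(H) at rank 5174 and the corepressor gene CtBP at rank 5302. The genes H and Nipped-A had none.

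No IDR-thresholded promoter summit was found at the relatives of the E(spl) genes elsewhere in the genome that could be looked up. This held for 0 of 6 bHLH-Orange genes (hry, dpn, Hey, Sidpn, Hesr and cwo) and for 0 of 4 genes of the Bearded complex (Brd, Tom, Ocho and BobA). At this threshold dpn was counted in replicate 1 and Ocho in replicate 3. Among the proneural genes, which the HLH repressors act on, and their partner, 1 of 8 was counted. This was da, the partner, at rank 3553, and ac, sc, l(1)sc, ase, ato, amos and cato had none. The lists are short, and their shares were not tested against the 22.9% of all coding genes.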

How the data were processed

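The authors deposited 4 peak lists on dm6, which were used unchanged. Each replicate and the pooled replicates gave a list called against a control alignment, and a further list was thresholded by IDR (irreproducible discovery rate), per the submitters' file records. Names of the aligner and the peak caller are not given in the sources used here. Coverage tracks and the control were not used here. The read depth is unknown, and no interval for counting error is given. Each peak carries a signal value deposited by the authors, on a scale not given in the sources used here, which served only to rank peaks within a list. The −log10 q-value deposited by the authors was 4.33 for all 12 IDR-thresholded peaks of the complex region and ranked nothing. Positions are those of the deposited summit offset, counted from 1 on each arm. The 6154 IDR-thresholded peaks are the 6154 pooled peaks of highest signal, and the pooled, replicate 1 and replicate 3 lists hold 30000 peaks each.

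Genes and start sites came from Ensembl release 115 (BDGP6.54, the dm6 sequence), and sequences from the NCBI copy of that assembly; all peaks lay within its arm lengths. A gene had a promoter summit when a summit lay within 500 bp of the TSS of a coding transcript. Summits were matched between lists within 100 bp. Positions, ranks and word matches were computed in Python 3.11.15 with pandas 2.3.3 and NumPy 2.4.6, and the assignment recovered 200 of 200 summits planted in simulated data.

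The members, lists and words were chosen with earlier results of these data known, and no test was made. All members, all other genes with a coding TSS in the region, the list genes with a summit and the 3 genes most like m7 in log2 signal over both replicates were named, with the other list genes by name only. Of 48 genes asked for, 45 were matched and 3 were not analysed here. Other promoter windows, thresholds, placements, flanks and single replicates were tried as alternatives.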

Additional observations from a re-analysis of the deposited data

How the results depend on the processing

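The number of members with a promoter summit was 3 with the stronger 50% of IDR-thresholded peaks, with either replicate alone and with the most upstream TSS, and 4 with peaks placed by interval. It became 0 with a promoter window of 250 bp, 5 with 1000 bp and 7 with all peaks of the pooled list. For HLH genes the count became 0 with 250 bp and 6 with all pooled peaks. For Bearded-family genes it became 2 with 1000 bp, 1 with all pooled peaks and 1 with peaks placed by interval. The windows changed which of the same summits were counted, and the pooled list added weaker summits. For the 42 Notch pathway genes outside the complex, the count of 15 became 5 with the stronger 50% of IDR-thresholded peaks and 28 with all pooled peaks. The count of strongly bound members with a Su(H) word became 3 with 1000 bp upstream, a window chosen after seeing the data.

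With a replicate left out, the complex held 11 to 14 summits. The offset then ran from 298 to 372 bp for mdelta, 811 to 819 bp for malpha, 501 to 515 bp for m2, 413 to 432 bp for m3 and 360 to 371 bp for m7. The rank ran from 38 to 84 for mdelta, 2898 to 7917 for malpha, 77 to 95 for m2, 53 to 83 for m3 and 7 to 31 for m7. The summit beyond malpha was outside the first 6154 peaks without replicate 1; the cause was not tested. With 51 bp windows the median A/T content of the summits was 67.6%.

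No paired analysis was possible because the replicates form 1 group with no second condition. With 2 replicates the spread of each value is poorly known, the read depth is unknown, and a position alone does not assign a summit to 1 of 2 neighbouring genes.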
